A study of Homo sapiens with 24 samples.

Results

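Of the 34618 genes in the deposited table, 39 genes of glycolysis and of the response to low oxygen are described here, chosen by symbol. They are 17 enzymes of glycolysis and lactate formation, 3 regulators of the flux, 3 transporters of glucose or lactate, 6 genes of oxygen sensing and 10 targets of hypoxia. Expression was measured by RNA sequencing in HepG2, a human liver cancer line. Every line carried a stable lentiviral short hairpin RNA and had been selected with puromycin at 1 ug/mL. The hairpin was against SETD2, which encodes a histone H3 lysine 36 methyltransferase (shSETD2), against METTL14, which encodes a subunit of the RNA m6A methyltransferase (shMETTL14), or a non-specific control (shCtrl). Each line was sampled untreated (0 h) and after 1, 3 and 6 h of actinomycin D at 5 ug/mL, an inhibitor of transcription, which made 12 groups of 2 libraries each. The design text calls the 2 libraries biological replicates but does not say whether they were separate cultures, or whether a line is a clone or a pool, so the spread behind each p-value may be technical.

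Library totals ran between 18308638 and 31402091 counts. At 0 h SETD2 averaged 86.1 ± 6.11 CPM in shSETD2 and 129.6 ± 1.33 CPM in shCtrl, and METTL14 averaged 14.5 ± 0.762 CPM in shMETTL14 and 29.7 ± 0.532 CPM in shCtrl (SD, n = 2 each). CPM is a gene's count scaled to a common library total, with TMM factors. METTL14 was also higher in shSETD2 than in shCtrl at 0 h, at 38.3 ± 0.437 CPM. Its log2 fold change there was 0.37 (adjusted p = 0.00260, edgeR's quasi-likelihood test). SETD2 in shMETTL14 averaged 125.4 ± 1.69 CPM at 0 h and did not pass that test against shCtrl. All 9 hepatocyte-derived markers, ALB and AFP among them, averaged above 1 CPM over all libraries. Their sum was 100143 to 185039 CPM in shSETD2, 59749 to 122482 CPM in shMETTL14 and 51986 to 99757 CPM in shCtrl. Of 7 fibroblast markers 2 averaged above 1 CPM, PDGFRB at 18.8 CPM (up to 48.9 CPM) and COL1A1 at 10.4 CPM (up to 19.1 CPM). DCN was at 0. Of 5 blood markers 3 averaged above 1 CPM, with PTPRC at 0 and LYZ at up to 5055 CPM. Of 4 endothelial markers 3 were found, without PECAM1. None of these averaged above 1 CPM over all libraries, with CDH5 at 0.656 CPM (up to 2.04 CPM). The spread within a pair was 1.35 to 5.32 times the sampling variance (chi-square per degree of freedom), except for the shSETD2 6 h pair, where it was 16.9 times. The differences in late course that rest on that pair are given with it and without each of its libraries.

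Glycolysis splits glucose into pyruvate, and lactate dehydrogenase turns pyruvate into lactate, which leaves the cell through monocarboxylate transporters. When oxygen is low, the prolyl hydroxylases and VHL no longer mark the HIF alpha subunits for destruction, and HIF alpha bound to ARNT turns on genes of both kinds at sites that contain ACGTG or GCGTG. Actinomycin D lowers the amount of RNA as a whole. ERCC spike-in RNA was added per the labels, but the table held 0 ERCC rows, so no spike-in scaled these values. The TMM factors were lower at 6 h than at 0 h in every line, so a change in CPM under the drug is relative to the trimmed mean of the other genes and is not a change in the share of the library. Values scaled by library size alone, which are shares, are given beside the counts. The percentages of all genes called are from the fit with TMM factors to all libraries. They do not apply to counts from another setting. In bulk RNA, fewer cells and less RNA per cell cannot be told apart.

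The promoter letters of 3 genes that were higher in each knockdown line before the drug are shown because they hold the HIF core ACGTG. Each is 250 bases before to 50 bases after a transcript start, from RefSeq on GRCh38.p14, at chr11:18394313-18394612 (plus strand) for LDHA, chr17:28576846-28577145 (minus strand) for ALDOC and chr10:131981874-131982173 (minus strand) for BNIP3. Capitals mark ACGTG on either strand, and the palindrome CACGTG is counted once on each strand.
LDHA: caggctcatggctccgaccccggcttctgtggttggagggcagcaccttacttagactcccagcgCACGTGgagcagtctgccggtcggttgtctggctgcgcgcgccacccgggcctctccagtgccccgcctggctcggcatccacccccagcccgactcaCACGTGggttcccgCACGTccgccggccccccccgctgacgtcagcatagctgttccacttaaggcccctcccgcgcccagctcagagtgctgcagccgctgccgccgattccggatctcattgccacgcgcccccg
ALDOC: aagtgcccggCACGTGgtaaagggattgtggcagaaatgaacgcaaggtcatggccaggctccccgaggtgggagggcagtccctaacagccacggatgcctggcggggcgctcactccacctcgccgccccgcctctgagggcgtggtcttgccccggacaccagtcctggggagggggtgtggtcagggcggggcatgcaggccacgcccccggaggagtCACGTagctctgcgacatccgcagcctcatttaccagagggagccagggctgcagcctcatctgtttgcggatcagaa
BNIP3: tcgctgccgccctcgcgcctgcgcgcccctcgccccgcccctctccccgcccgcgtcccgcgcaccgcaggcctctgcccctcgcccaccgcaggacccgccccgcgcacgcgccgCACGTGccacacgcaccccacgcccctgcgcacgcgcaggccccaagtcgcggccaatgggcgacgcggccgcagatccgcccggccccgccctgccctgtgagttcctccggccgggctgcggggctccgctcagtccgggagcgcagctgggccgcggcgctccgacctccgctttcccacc
By that count the LDHA window held 5 copies, the ALDOC window 3 and the BNIP3 window 2. Of 35116 RefSeq windows of the same length 21.4% held ACGTG at least once, 8.82% at least 2 times and 0.843% at least 4 times. Windows were listed for 34 of the 39 genes, with 62 windows in all, since a gene can have several. Of the 62 windows 23 (37.1%) held ACGTG. HK2, which was lower in each knockdown line, had a window with 4 copies, while EGLN3, PFKFB4 and P4HA2, which were higher in each, had none in the windows listed. GCGTG, the other core, was in 36.5% of all windows. These are matches of letters only.

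Before the drug, levels per length spanned a wide range. By the deposited RPKM (the count divided by exon length and library total), GAPDH, which encodes glyceraldehyde-3-phosphate dehydrogenase, was highest in shCtrl at 378 ± 6.10 RPKM. ENO1 (enolase 1) followed at 310.1 ± 3.83 RPKM, then the glucose transporter gene SLC2A1 at 208 ± 0.528 RPKM, ALDOA (aldolase A) at 120.4 ± 1.24 RPKM and PKM (pyruvate kinase M) at 80.3 ± 1.43 RPKM (SD, n = 2 each). LDHA, the lactate dehydrogenase A gene, stood at 76.7 ± 1.31 RPKM in shCtrl. The exon length is the deposited total of a gene, which can exceed that of 1 transcript. ALDOA has 6153 bases against 1603 in the transcript used further below, and SLC2A1 has 4208 against 3670. The order of the genes by RPKM depends on that length. The lowest genes above 0 in shCtrl were CA9, PFKM, EGLN3 and ANKRD37, with means of 0.264 to 0.370 RPKM. LDHB, the other lactate dehydrogenase gene, had 2 reads in 1 library and none in the others, where a count of 0 allows up to 0.0936 to 0.196 CPM (3 counts, counting error only). It was the only gene of the 39 that did not pass the filter on low counts, so 38 were tested.

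In untreated shSETD2 cells 20 of the 38 genes passed the test against shCtrl, 9 higher and 11 lower. The call is an adjusted p under 0.05 from edgeR's two-sided quasi-likelihood test with Benjamini-Hochberg adjustment over all genes tested, here and below. Across all 14887 genes 40.6% passed, 21.6% higher and 18.9% lower, and the median log2 fold change was 0.032 for the 38 genes and 0.017 for all. In untreated shMETTL14 cells 23 passed against shCtrl, 14 higher and 9 lower, where 48.1% of all genes passed, 23.1% higher and 25.1% lower. The median was 0.15 for the 38 genes and -0.0062 for all. Scaled by library size alone the splits were 7 and 13 in shSETD2 and 19 and 8 in shMETTL14, with the median of all genes at -0.14 and 0.048. These comparisons use the same shCtrl libraries.

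LDHA (ENSG00000134333, GRCh37 chr11:18415935-18429972, plus strand) was higher in each knockdown line. It stood at 679.6 and 671 CPM in shSETD2 and at 712 and 699.9 CPM in shMETTL14, against 411 and 419.6 CPM in shCtrl. No library of a knockdown line overlapped one of shCtrl. The log2 fold change was 0.70 in shSETD2 (SE 0.0466, adjusted p = 3.08e-11) and 0.76 in shMETTL14 (SE 0.0466, adjusted p = 7.11e-12). Between the knockdown lines, shSETD2 minus shMETTL14, it was -0.064 (95% interval -0.16 to 0.037, adjusted p = 0.256). That difference passed with library size alone (-0.28, adjusted p = 2.06e-05), with a filter at a mean of 5 CPM (-0.12, adjusted p = 0.0207) and in a fit of only these 2 groups (-0.11, adjusted p = 7.15e-05).

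The hexokinases, which trap glucose as glucose-6-phosphate, set the lines apart. HK2 (GRCh37 chr2:75061108-75120486, plus strand) stood at 163 and 164 CPM in shSETD2 and 94.4 and 95.7 CPM in shMETTL14, against 217 and 215 CPM in shCtrl. It fell in each, with log2 fold changes of -0.40 in shSETD2 (SE 0.0427, adjusted p = 7.67e-08) and -1.18 in shMETTL14 (SE 0.0435, adjusted p = 1.52e-15). HK1 was scarce, at 1.32 and 1.03 CPM in shSETD2 and 8.30 and 9.17 CPM in shMETTL14, against 2.33 and 2.17 CPM in shCtrl. It was lower than shCtrl in shSETD2 (-0.92, adjusted p = 0.00306) and higher in shMETTL14 (1.95, adjusted p = 7.94e-10). The difference between the knockdown lines, shSETD2 minus shMETTL14, was -2.87 (SE 0.180, adjusted p = 9.45e-12), the largest of the 38 genes in size. Per length HK1 was far scarcer than HK2 also in shMETTL14, at a level of 1.69 RPKM against 18.7 RPKM for HK2.

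Phosphofructokinase commits the sugar to glycolysis, and its subunit genes also differed. PFKP, the platelet-type subunit, fell in shSETD2 with 2.17 and 2.14 CPM, against 4.39 and 4.59 CPM in shCtrl (log2 fold change -1.06, SE 0.219, adjusted p = 0.000463). In shMETTL14 it stood at 4.40 and 3.60 CPM. PFKM, the muscle-type subunit, was higher in shMETTL14 with 3.46 and 3.32 CPM, against 1.86 and 1.76 CPM in shCtrl (0.91, adjusted p = 8.01e-05). In shSETD2 PFKM stood at 2.44 and 2.51 CPM (0.45, adjusted p = 0.0455), and that call was lost with RLE factors or library size alone, without a filter, with DESeq2, in a fit of only these groups, and without any 1 of the 4 libraries (adjusted p up to 0.316). PFKM overlaps SENP1 on the other strand, so its reads are uncertain. PFKL, the liver-type subunit, rose in shMETTL14 (0.40, adjusted p = 0.000285).

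Among the enzymes further down, ALDOC (aldolase C) was higher in each line, with 15.5 and 15.001 CPM in shSETD2 and 12.6 and 11.4 CPM in shMETTL14, against 7.71 and 6.76 CPM in shCtrl. Its log2 fold changes were 1.08 in shSETD2 (SE 0.0978, adjusted p = 5.86e-09) and 0.74 in shMETTL14 (SE 0.0993, adjusted p = 1.93e-06). ENO2, the neuronal-type enolase gene, which overlaps LRRC23 on the same strand so that its reads are uncertain, fell in shSETD2 to 23.6 and 20.8 CPM, against 40.3 and 38.4 CPM in shCtrl (-0.82, adjusted p = 5.05e-09). Its shMETTL14 libraries, at 39.3 and 39.2 CPM, lay between those of shCtrl. ENO1 was lower in shSETD2 (-0.24) and in shMETTL14 (-0.25), PKM in shSETD2 (-0.34), and GAPDH and TPI1 (triosephosphate isomerase) in shMETTL14 (-0.27 and -0.24). TPI1 in shMETTL14 was -0.42 to -0.27 with 1 library left out, lowest without shMETTL14 0 h replicate 1. Each such fit also repeated the filter and the TMM factors. HK2 moved as well in these fits, from -1.18 to between -1.29 and -1.28. In all, 3 of the 16 tested enzyme genes rose and 6 fell in shSETD2, and 5 rose and 4 fell in shMETTL14, with medians of -0.012 and -0.021. The shares of all genes were 21.6% higher and 18.9% lower in shSETD2, and 23.1% higher and 25.1% lower in shMETTL14.

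PFKFB3 and PFKFB4 encode enzymes that make and break fructose-2,6-bisphosphate, the activator of phosphofructokinase. PFKFB3 fell to 3.49 and 3.05 CPM in shSETD2 and 6.09 and 6.28 CPM in shMETTL14, against 11.9 and 11.04 CPM in shCtrl. PFKFB4 rose to 11.999 and 11.1 CPM in shSETD2 and 12.3 and 10.8 CPM in shMETTL14, against 6.09 and 5.69 CPM in shCtrl. The pair thus went in opposite directions in each line, without overlap with shCtrl. The log2 fold changes of PFKFB3 were -1.80 in shSETD2 (SE 0.156, adjusted p = 2.88e-09) and -0.89 in shMETTL14 (SE 0.138, adjusted p = 1.26e-05), and those of PFKFB4 0.98 and 0.98 (adjusted p = 1.59e-06 and 9.93e-07).

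The glucose transporter genes also set the lines apart. SLC2A1, which encodes GLUT1 (GRCh37 chr1:43391052-43424530, minus strand), stood at 374 and 388 CPM in shSETD2 and at 728 and 714 CPM in shMETTL14, against 768 and 762 CPM in shCtrl. It fell in shSETD2 (log2 fold change -1.004, SE 0.0516, adjusted p = 3.13e-13) and did not pass in shMETTL14 (-0.086, adjusted p = 0.172). SLC2A3, which encodes GLUT3, stood at 129 and 131 CPM in shSETD2 and at 295 and 301 CPM in shMETTL14, against 229.7 and 223 CPM in shCtrl. It fell in shSETD2 (-0.80, SE 0.0422) and rose in shMETTL14 (0.40, SE 0.0413), and shSETD2 minus shMETTL14 was -1.20 (adjusted p = 3.67e-16). The lactate exporter gene SLC16A3 had 0.16 in shSETD2 and 0.0049 in shMETTL14, neither past the test, and its reads are uncertain, since it overlaps the abundant CSNK1D on the other strand.

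Among the oxygen sensing genes, HIF1A, which encodes the main inducible HIF alpha subunit, was lower in each line. It stood at 255 and 251 CPM in shSETD2 and 262 and 263 CPM in shMETTL14, against 341 and 335 CPM in shCtrl (log2 fold changes -0.42 and -0.36, adjusted p = 4.20e-05 and 0.000160). EPAS1, the HIF-2 alpha gene, was slightly higher in shSETD2 (0.20) and slightly lower in shMETTL14 (-0.13). VHL, the substrate receptor of the ubiquitin ligase, was lower in shMETTL14 at 61.1 and 60.0 CPM, against 96.4 and 88.6 CPM in shCtrl (-0.61, SE 0.0555, adjusted p = 5.48e-09). In shSETD2 it stood at 96.4 and 92.8 CPM. EGLN3, a prolyl hydroxylase gene that overlaps the more abundant SPTSSA, was higher in shSETD2 (0.70, adjusted p = 0.00612) and in shMETTL14 (0.79, adjusted p = 0.00150). These EGLN3 calls were lost without shCtrl 0 h replicate 1 (0.44 and 0.52, adjusted p = 0.156 and 0.0687).

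Of the 10 hypoxia targets 3 rose and 1 fell in shSETD2, and 5 rose and 1 fell in shMETTL14, with medians of 0.075 and 0.37. Of all genes 21.6% were higher and 18.9% lower in shSETD2, and 23.1% higher and 25.1% lower in shMETTL14. NDRG1, a stress-induced gene, rose in shMETTL14 to 74.3 and 69.6 CPM, against 32.8 and 33.1 CPM in shCtrl (log2 fold change 1.13, SE 0.0566, adjusted p = 2.73e-13), and stood at 34.1 and 34.2 CPM in shSETD2. CA9, a carbonic anhydrase gene that overlaps ARHGEF39, rose in shMETTL14 on few reads, 27 and 34 in shMETTL14 against 9 and 12 in shCtrl (1.38, adjusted p = 0.00175). BNIP3 and BNIP3L encode mitophagy receptors. BNIP3 was higher in each line, at 21.2 and 21.5 CPM in shSETD2 and 23.5 and 24.7 CPM in shMETTL14, against 16.3 and 15.8 CPM in shCtrl (0.41 and 0.59), and BNIP3L was higher in shMETTL14 (0.71). VEGFA, the vascular growth factor gene, was lower in shSETD2 (-0.26) and in shMETTL14 (-0.54). The collagen prolyl hydroxylase genes P4HA1 and P4HA2 rose in shSETD2 by 0.49 and 0.43. P4HA2 was 0.28 without shCtrl 0 h replicate 1 (adjusted p = 0.0148).

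**Figure D1:**
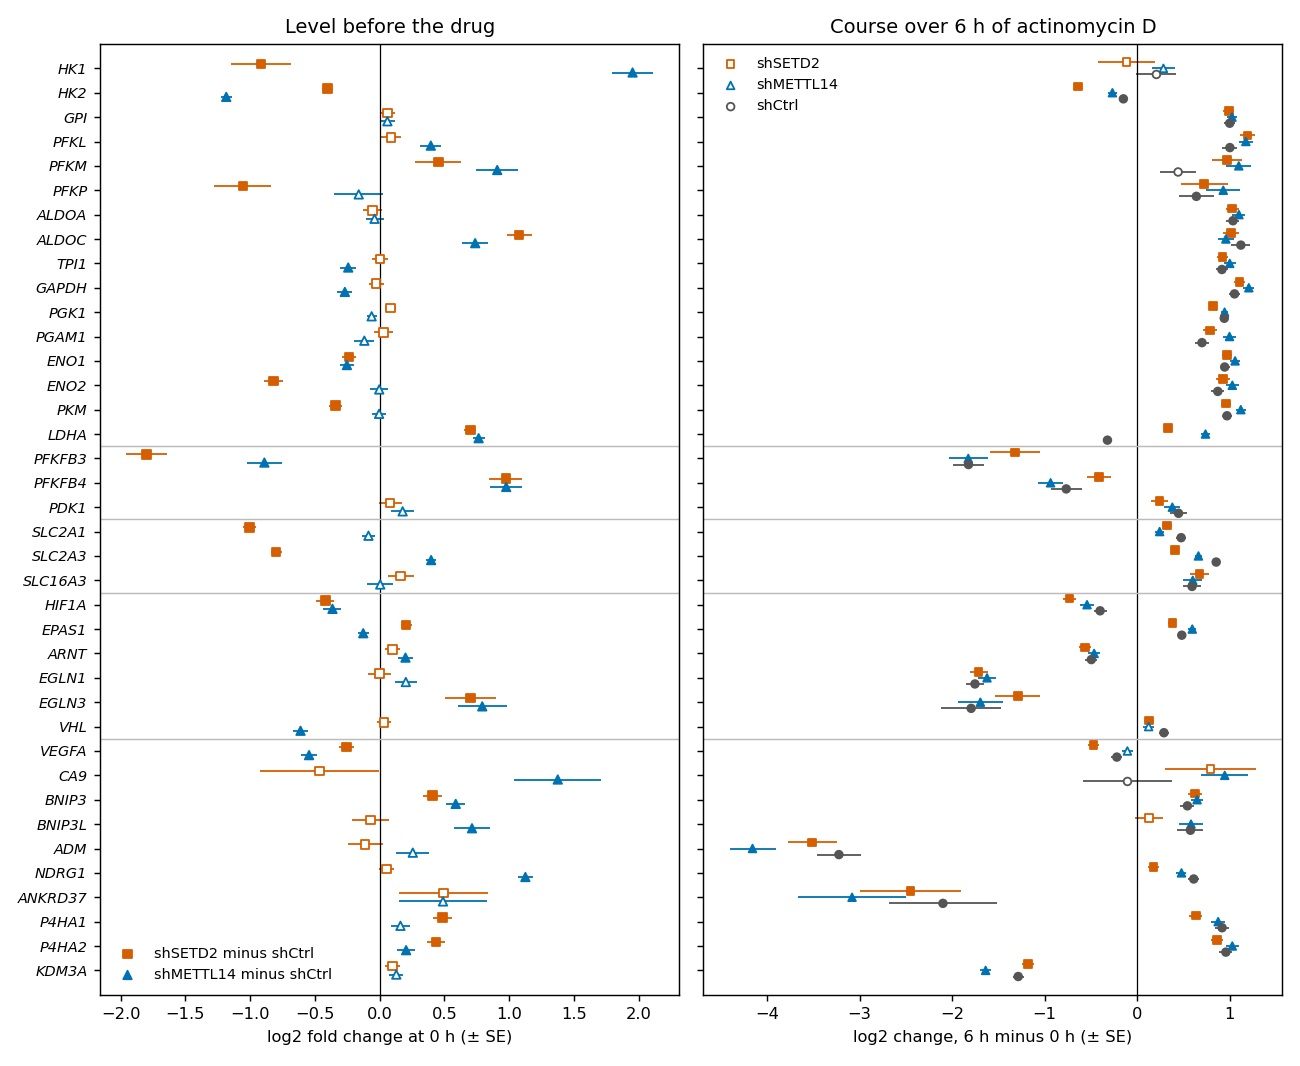
Log2 differences with SE for the 38 tested genes, ordered by role, with 2 libraries per group. The left panel shows each knockdown line minus shCtrl at 0 h, and the right panel 6 h minus 0 h of actinomycin D within each line; filled symbols passed the test. Most enzyme genes lie near 1 on the right in every line, while LDHA is at 0.33 in shSETD2, 0.74 in shMETTL14 and -0.32 in shCtrl.

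Set directly against shMETTL14, untreated shSETD2 cells differed in 25 of the 38 genes, 10 higher and 15 lower, where 52.2% of all genes passed, 29.2% higher and 23% lower. With library size alone the split was 3 and 23, with the median of all genes at -0.18 in place of 0.030. ALDOC (0.34), P4HA1 (0.33), VEGFA (0.29), TPI1 (0.25) and GAPDH (0.24) were higher in shSETD2 and lost that call with library size alone. The largest differences after HK1 were CA9 (-1.84), SLC2A3 (-1.20) and NDRG1 (-1.07), all lower in shSETD2. HK2 (0.78) and VHL (0.64) led among those higher in shSETD2.

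Other genes of these pathways were counted at 0 h, against shCtrl, from lists that hold none of the 39. Over all genes 21.6% were higher and 18.9% lower in shSETD2, and 23.1% higher and 25.1% lower in shMETTL14. Of 31 tested genes of glucose and pyruvate metabolism 16 rose and 4 fell in shSETD2 (median 0.28), and 11 rose and 10 fell in shMETTL14 (median 0.14). SLC2A2, which encodes the glucose transporter of liver, had log2 fold changes of 2.12 in shSETD2 and 2.31 in shMETTL14. PKLR, the liver pyruvate kinase gene, had 2.25 in shSETD2 and 1.47 in shMETTL14, and FBP1, a gluconeogenic phosphatase gene, 1.89 and 2.61. These 3 had the largest changes of the list in each line. Of 49 tested hypoxia genes outside the 39, 15 rose and 16 fell in shSETD2, and 17 rose and 15 fell in shMETTL14, with medians of 0.0031 and -0.029. Among them LOX rose by 2.63 and IGFBP3 fell by 2.58 in shSETD2, while IGFBP1 rose by 1.96 and DDIT4 fell by 1.90 in shMETTL14.

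Under actinomycin D most of the enzyme transcripts rose in CPM. At 6 h against 0 h, 35 of the 38 genes passed in each line, with 24 higher and 11 lower in shSETD2, 25 and 10 in shMETTL14, and 23 and 12 in shCtrl. Over all genes 69.1% passed in shSETD2, 33.6% higher and 35.5% lower, 72.2% in shMETTL14, 37.6% higher and 34.6% lower, and 70.1% in shCtrl, 36.9% higher and 33.2% lower. Scaled by library size alone the splits were 17 and 12 in shSETD2, 19 and 13 in shMETTL14 and 19 and 12 in shCtrl, with the median of all genes at -0.29, -0.38 and -0.27. The percentages just given are with TMM factors and do not apply to these splits. Of the 16 enzyme genes, 14 rose and 1 fell in shSETD2, 14 rose and 1 fell in shMETTL14, and 12 rose and 2 fell in shCtrl. Their medians were 0.95, 1.01 and 0.93, or 0.66, 0.57 and 0.58 with library size alone. Of the 31 other genes of glucose and pyruvate metabolism, 21 rose and 5 fell in shSETD2, 23 rose and 4 fell in shMETTL14, and 20 rose and 4 fell in shCtrl.

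GAPDH is an example of the abundant enzymes. In shSETD2 it stood at 963 and 962 CPM at 0 h, 1643 and 1601 CPM at 3 h and 2226 and 1913 CPM at 6 h. In shMETTL14 it stood at 831 and 796 CPM at 0 h, 1535 and 1503 CPM at 3 h and 1925 and 1833 CPM at 6 h. In shCtrl it stood at 971 and 989 CPM at 0 h, 1680.3 and 1621 CPM at 3 h and 2122 and 1943 CPM at 6 h. No libraries of these times overlapped within a line. The log2 change at 6 h against 0 h was 1.11 (SE 0.0580) in shSETD2, 1.21 (SE 0.0581) in shMETTL14 and 1.05 (SE 0.0579) in shCtrl. ALDOA, ENO1, GPI (glucose-6-phosphate isomerase), PFKL and TPI1 rose by 0.92 to 1.19 in shSETD2, 1.00 to 1.18 in shMETTL14 and 0.92 to 1.04 in shCtrl. All 3 transporter genes rose in each line, SLC16A3 by 0.67, 0.60 and 0.59, but with library size alone 2 rose in shSETD2, and 1 rose and 1 fell in shMETTL14.

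By 6 h LDHA had risen less than most other enzymes in the knockdown lines and had fallen in shCtrl. In shSETD2 it stood at 679.6 and 671 CPM at 0 h, 757 and 769.5 CPM at 1 h, 963 and 973 CPM at 3 h and 807 and 893 CPM at 6 h. In shMETTL14 it stood at 712 and 699.9 CPM at 0 h, 829 and 839.7 CPM at 1 h, 1096 and 1099 CPM at 3 h and 1127 and 1229 CPM at 6 h. In shCtrl it stood at 411 and 419.6 CPM at 0 h, 481 and 472 CPM at 1 h, 539.8 and 555 CPM at 3 h and 326 and 339 CPM at 6 h. The shCtrl libraries at 6 h were thus below those at 0 h, while all knockdown libraries at 6 h were above their own at 0 h. At 6 h against 0 h LDHA changed by 0.33 in shSETD2 (SE 0.0464, adjusted p = 1.04e-06), by 0.74 in shMETTL14 (SE 0.0464, adjusted p = 1.41e-12) and by -0.32 in shCtrl (SE 0.0470, adjusted p = 1.97e-06). In shSETD2 the value was 0.041 with library size alone (adjusted p = 0.433).

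**Figure D2:**
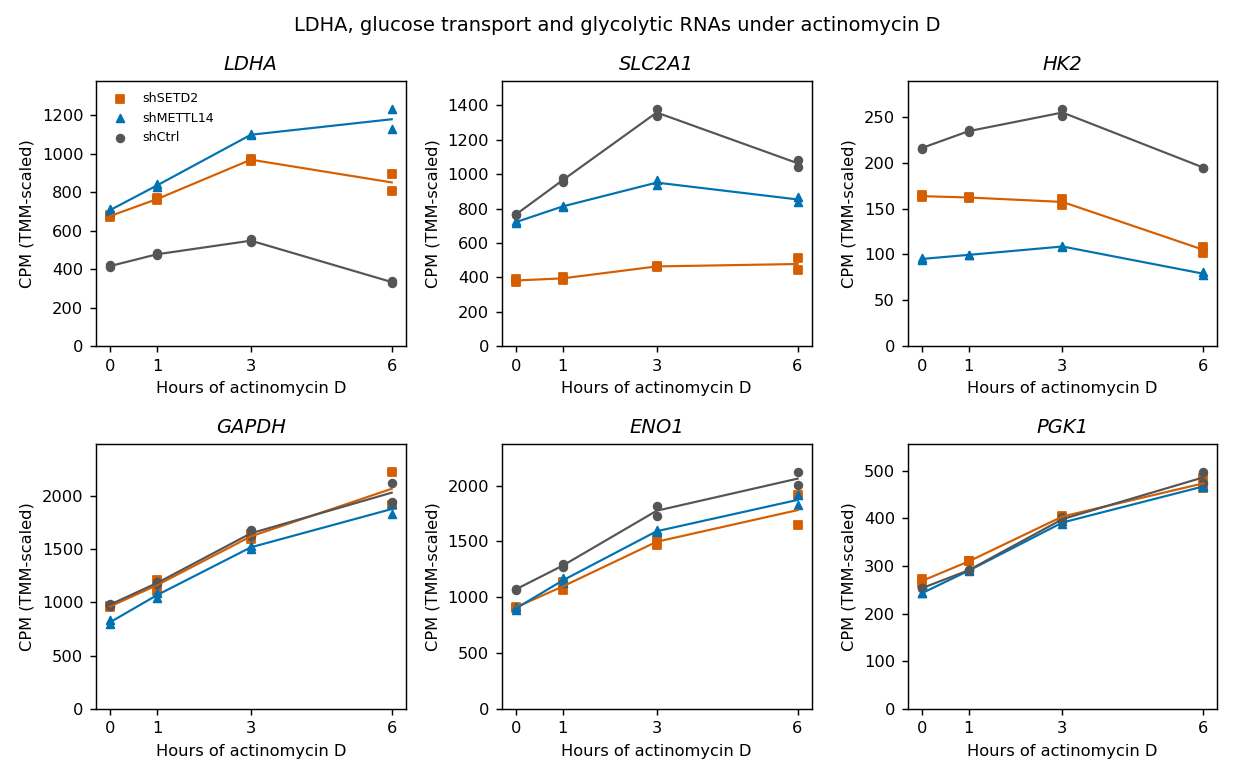
CPM (TMM-scaled, linear axes from 0) against hours of actinomycin D for LDHA, SLC2A1, HK2, GAPDH, ENO1 and PGK1; each point is a library and lines join group means. LDHA turns down after 3 h in shCtrl, to 326 and 339 CPM at 6 h, while the means of GAPDH, ENO1 and PGK1 go on rising in all 3 lines.

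Between 3 h and 6 h LDHA and most other enzymes parted in shCtrl, less so in shSETD2 and least in shMETTL14. In that window 22 of the 38 genes passed in shSETD2 (17 higher, 5 lower), 23 in shMETTL14 (17 and 6) and 24 in shCtrl (17 and 7). Over all genes 39% passed in shSETD2, 19.2% higher and 19.9% lower, 39.5% in shMETTL14, 17.7% higher and 21.8% lower, and 38.5% in shCtrl, 18.8% higher and 19.8% lower. With library size alone the splits were 11 and 7 in shSETD2, 6 and 9 in shMETTL14 and 7 and 8 in shCtrl, with the median of all genes at -0.14, -0.18 and -0.11. In a fit of only the 2 shSETD2 groups 4 genes passed, 2 higher and 2 lower. LDHA changed by -0.19 in shSETD2 (SE 0.0463, adjusted p = 0.00241), by 0.10 in shMETTL14 (SE 0.0461, adjusted p = 0.0846) and by -0.72 in shCtrl (SE 0.0471, adjusted p = 7.39e-11). The shSETD2 value was -0.12 without 6 h replicate 1 (adjusted p = 0.0431) and -0.26 without 6 h replicate 2 (adjusted p = 1.23e-05). Its call was lost in the fit of only its 2 groups (-0.18, adjusted p = 0.211). The shMETTL14 value passed as a rise with RLE factors (0.12, adjusted p = 0.0429), and also with the replicate block, given in the section on processing. It was 0.16 without shMETTL14 6 h replicate 1, and turned to -0.061 with library size alone (adjusted p = 0.309).

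The other 15 tested enzymes had median late changes, 6 h minus 3 h, of 0.30 in shSETD2, 0.25 in shMETTL14 and 0.26 in shCtrl, with 11, 10 and 10 called higher and 1 called lower in each. The shares of all genes called higher were 19.2%, 17.7% and 18.8%, and those called lower 19.9%, 21.8% and 19.8%. With library size alone 7 of all 16 were called higher in shSETD2, 1 in shMETTL14 and 4 in shCtrl. LDHA minus the median of the other 15, from group means of log2(CPM + 0.5), was -0.47 in shSETD2, -0.15 in shMETTL14 and -0.97 in shCtrl. Leaving out 1 library at a time gave -0.64 to -0.29 in shSETD2, -0.25 to -0.037 in shMETTL14 and -1.06 to -0.91 in shCtrl. In shCtrl LDHA had the lowest late change of the 16, and in each knockdown line it was number 3 from the lowest. Of all 14887 genes, 35.1% had a lower late change than LDHA in shSETD2, 61.9% in shMETTL14 and 9.65% in shCtrl. The other enzyme called lower in each line was HK2, which fell by 0.58 in shSETD2, 0.46 in shMETTL14 and 0.39 in shCtrl. At 6 h HK2 stood at 102 and 108 CPM in shSETD2, 77.1 and 80.8 CPM in shMETTL14 and 195 and 195 CPM in shCtrl.

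**Figure D3:**
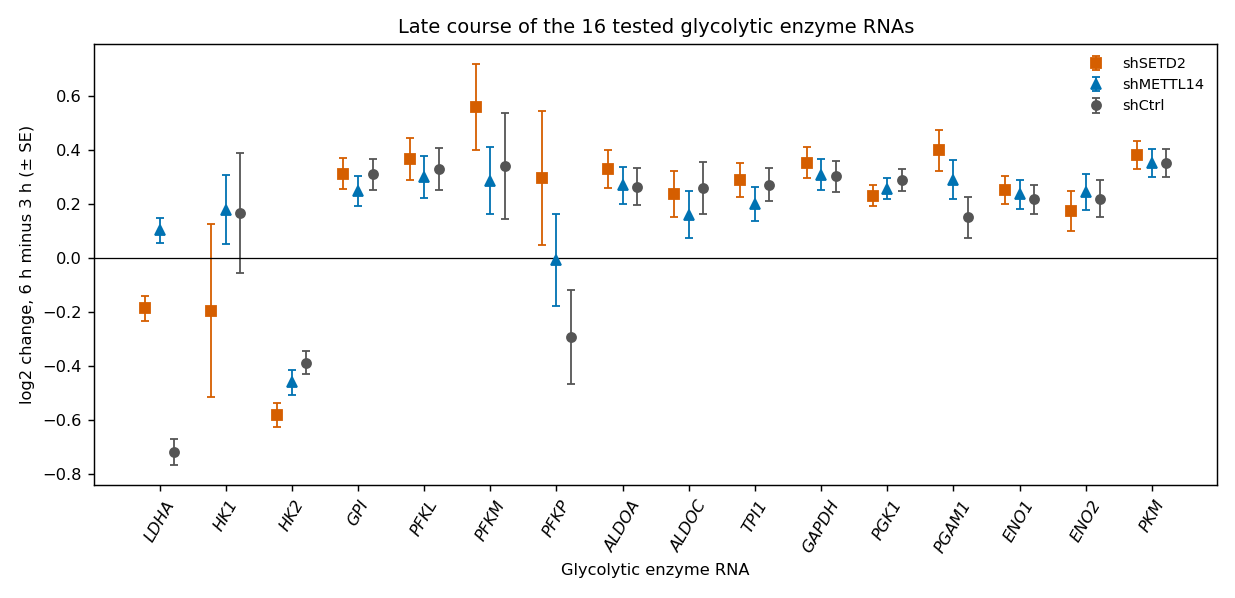
Log2 change at 6 h against 3 h of actinomycin D, with SE, for the 16 tested enzyme genes in each line (2 libraries per group). LDHA lies at -0.19 in shSETD2, 0.10 in shMETTL14 and -0.72 in shCtrl, and HK2 lies below 0 in all 3 lines.

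The difference between lines in this late change was tested directly. In shMETTL14 minus shCtrl LDHA had 0.82 (SE 0.0658, adjusted p = 2.95e-07) and was the only 1 of the 38 genes to pass, where 0.302% of all genes passed, 0.128% higher and 0.175% lower. By p it was number 1 of all 14887 genes. In shSETD2 minus shCtrl 2 genes passed, LDHA with 0.53 (SE 0.0659, adjusted p = 0.000218) and SLC2A1 with 0.40 (SE 0.0724, adjusted p = 0.0143), where 0.168% of all genes passed, 0.121% higher and 0.047% lower. These comparisons share the shCtrl libraries. LDHA kept its call in shSETD2 minus shCtrl without each library in turn, either shSETD2 6 h library included (0.46 to 0.61), and under the other settings except a fit of only those 4 groups (0.51, adjusted p = 0.486). The number of genes was 5 without shSETD2 6 h replicate 2, and 1 without shCtrl 3 h replicate 1, shCtrl 6 h replicate 2 or either shSETD2 3 h library.

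Between the knockdown lines, shSETD2 minus shMETTL14, the late change of LDHA was -0.29 (SE 0.0653, adjusted p = 0.0408). It was the only 1 of the 38 genes to pass, where 0.591% of all genes passed, 0.423% higher and 0.168% lower. That call was lost with RLE factors (adjusted p = 0.0556), in a fit of only those groups (adjusted p = 0.862), and without any 1 of the 4 libraries at 3 h, shSETD2 6 h replicate 1 (-0.22, adjusted p = 0.0810) or shMETTL14 6 h replicate 2 (-0.22, adjusted p = 0.261). Without shSETD2 6 h replicate 2 LDHA had -0.36 (adjusted p = 0.000265) and the number of genes was 6.

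Set against GAPDH per length, the RPKM of LDHA was 17.4% and 22.4% of that of GAPDH in shSETD2 at 6 h, against 33.8% and 33.4% at 0 h. In shMETTL14 it was 28.1% and 32.1% at 6 h against 41.0% and 42.1% at 0 h, and in shCtrl 7.37% and 8.35% at 6 h against 20.3% and 20.3% at 0 h. The ratio was lower at 6 h than at 0 h in all 3 lines, with no overlap between the times. Its size depends on the deposited exon lengths, 6210 bases for LDHA and 2975 for GAPDH, but its change with time does not. LDHA and GAPDH have near-identical processed copies in the genome, and how reads shared with those were counted is not known here, so their values are uncertain to that extent.

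SLC2A1 also differed late. In shSETD2 it stood at 513 and 442 CPM at 6 h against 465 and 462 CPM at 3 h. In shMETTL14 it stood at 869.5 and 836 CPM at 6 h against 967 and 935 CPM at 3 h, and in shCtrl at 1084 and 1043 CPM against 1376 and 1341 CPM. Its late change was 0.043 in shSETD2, where the times overlapped, -0.16 in shMETTL14 (adjusted p = 0.0172) and -0.35 in shCtrl (adjusted p = 8.21e-06). The SLC2A1 call for shSETD2 minus shCtrl was lost without shCtrl 3 h replicate 1, shCtrl 6 h replicate 2 or either shSETD2 3 h library (adjusted p up to 0.114), and in a fit of only those groups (adjusted p = 0.994). It was 0.29 without shSETD2 6 h replicate 1 (adjusted p = 0.0109) and 0.50 without replicate 2 (adjusted p = 2.04e-06). The fall in shMETTL14 was lost without shMETTL14 3 h replicate 1 or 6 h replicate 2 (adjusted p = 0.114 and 0.111).

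Over the whole course, each line was given a slope, fitted by least squares to its 4 group means against time in hours. Between shSETD2 and shCtrl 6 of the 38 genes differed in slope, 1 higher and 5 lower. Over all genes 7.94% passed, 1.49% higher and 6.45% lower. LDHA had the higher slope (0.11 log2 per h, SE 0.0102, adjusted p = 2.42e-07). HK2 (-0.079, adjusted p = 1.53e-05), SLC2A3 (-0.070, adjusted p = 4.66e-05) and NDRG1 (-0.076, adjusted p = 0.000900) had lower slopes in shSETD2. Each fit with 1 library left out also repeated the filter and the TMM factors, and which of these moved a value was not tested. HK2 stood at 217 and 215 CPM in the shCtrl 0 h libraries, and the slopes were fitted again without each of those libraries. Without replicate 1 or replicate 2 of them the slope difference was -0.048 or -0.047 for HK2 (adjusted p = 0.0141 and 0.0153), -0.041 or -0.036 for SLC2A3 (adjusted p = 0.0233 and 0.0447) and -0.043 or -0.045 for NDRG1, which lost its call there (adjusted p = 0.0766 and 0.0755). NDRG1 also lost it in a fit of only these groups. HIF1A (-0.057, adjusted p = 0.0275) and VEGFA (-0.050, adjusted p = 0.0221) lost theirs with RLE factors, library size alone, the filter at 5 CPM, DESeq2 and the fit of only these groups. HIF1A also lost it without either 0 h library of either line, shCtrl 1 h replicate 1, shSETD2 1 h replicate 2, shCtrl 6 h replicate 2 or shSETD2 6 h replicate 1. VEGFA also lost it without either 0 h library of either line or shCtrl 6 h replicate 1. Without shCtrl 0 h replicate 2 the slope difference was -0.023 for HIF1A (adjusted p = 0.469) and -0.012 for VEGFA (adjusted p = 0.650). The number of genes was 11 without shSETD2 6 h replicate 2 and 3 without shCtrl 0 h replicate 2.

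In shMETTL14 against shCtrl 3 genes differed in slope, where 5.21% of all genes passed, 1.85% higher and 3.35% lower. LDHA was higher (0.18 log2 per h, SE 0.0102, adjusted p = 6.14e-11) and kept that call under each setting listed in the methods. SLC2A3 (-0.036, adjusted p = 0.0200) and KDM3A, a histone demethylase gene (-0.068, adjusted p = 0.00279), were lower. SLC2A3 lost the call with RLE factors, no filter, the filter at 5 CPM and the fit of only these groups, and without any 1 of the 8 libraries at 0 h and 6 h (down to -0.010, adjusted p = 0.641, without shCtrl 0 h replicate 2). KDM3A lost it without shCtrl 0 h replicate 1 (-0.039, adjusted p = 0.111) or either shMETTL14 0 h library (-0.044 and -0.045). The number of genes was 7 (6 higher) with the filter at 5 CPM, 13 (12 higher) in the fit of only these groups, 5 (1 higher) with library size alone and 1 without shMETTL14 0 h replicate 2.

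In the first hour of the drug 18 of the 38 genes passed in shSETD2 (11 higher, 7 lower), 22 in shMETTL14 (16 and 6) and 20 in shCtrl (13 and 7). Over all genes 28.8% passed in shSETD2, 12.6% higher and 16.1% lower, 39.1% in shMETTL14, 23.1% higher and 16% lower, and 29.7% in shCtrl, 13.8% higher and 15.9% lower. With library size alone the splits were 10 and 8 in shSETD2, 12 and 9 in shMETTL14 and 9 and 9 in shCtrl. In shCtrl 13 genes passed without 0 h replicate 1 or without 1 h replicate 2. All 11 genes that rose in shSETD2 were enzymes. LDHA rose by 0.18 in shSETD2, 0.24 in shMETTL14 and 0.20 in shCtrl. These LDHA calls were lost in shSETD2 without its 0 h replicate 2 (adjusted p = 0.0585), in shMETTL14 with library size alone (adjusted p = 0.0512) and in shCtrl without its 0 h replicate 1 (adjusted p = 0.0708).

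The largest falls under the drug were in hypoxia targets, oxygen sensing genes and PFKFB3. ADM, which encodes the vasodilator peptide adrenomedullin, had 129 and 117 reads at 0 h, 29 and 24 at 1 h and 9 and 4 at 6 h in shSETD2. In shMETTL14 it had 182 and 175 reads at 0 h, 19 and 24 at 1 h and 4 and 8 at 6 h, and in shCtrl 124 and 145, 21 and 17, and 10 and 9. The log2 change at 1 h against 0 h was -2.30 in shSETD2, -2.95 in shMETTL14 and -2.85 in shCtrl (adjusted p at most 2.21e-09), the largest in size of the 38 genes in each line. ANKRD37, an ankyrin repeat gene that overlaps UFSP2 on the other strand, had 1 to 6 reads per library at 6 h, against 16 to 46 at 0 h. It fell by 2.45 in shSETD2, 3.08 in shMETTL14 and 2.10 in shCtrl at 6 h against 0 h, and the call in shCtrl was lost without its 6 h replicate 2 (-1.43, adjusted p = 0.0547). The ANKRD37 value in shCtrl was -3.73 without 6 h replicate 1.

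PFKFB3 stood at 1.26 and 1.37 CPM at 6 h in shSETD2, 1.83 and 1.63 CPM in shMETTL14 and 3.42 and 3.02 CPM in shCtrl, with log2 changes against 0 h of -1.32, -1.83 and -1.82. EGLN1, the main HIF prolyl hydroxylase gene, stood at 20.1 and 25.2 CPM in shSETD2 at 6 h against 73.8 and 74.3 CPM at 0 h. Its changes were -1.71 in shSETD2, -1.62 in shMETTL14 and -1.75 in shCtrl (adjusted p at most 3.80e-13). KDM3A fell by 1.18, 1.64 and 1.29 in shSETD2, shMETTL14 and shCtrl. EGLN3 fell by 1.29, 1.70 and 1.80 in the same lines, with 9 to 29 reads per library at 6 h. In shMETTL14 EGLN3 was -2.66 without 6 h replicate 1. Of the HIF subunit genes, HIF1A fell by 0.73, 0.54 and 0.40 and ARNT by 0.57, 0.47 and 0.50, while EPAS1 rose by 0.38, 0.60 and 0.48. Of the 6 oxygen sensing genes 2 rose and 4 fell in shSETD2, 1 rose and 4 fell in shMETTL14, and 2 rose and 4 fell in shCtrl. Of all genes 33.6% rose and 35.5% fell in shSETD2, 37.6% and 34.6% in shMETTL14, and 36.9% and 33.2% in shCtrl. With library size alone 0 of the 6 genes rose and 5 fell in shSETD2, 1 and 5 in shMETTL14, and 1 and 4 in shCtrl.

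Other hypoxia targets went up. P4HA2 rose by 0.86 in shSETD2, 1.03 in shMETTL14 and 0.96 in shCtrl at 6 h against 0 h. P4HA1 rose by 0.63, 0.88 and 0.92 and BNIP3 by 0.63, 0.65 and 0.54 in the same lines. Of the 10 targets 4 rose and 4 fell in shSETD2, 6 rose and 3 fell in shMETTL14, and 5 rose and 4 fell in shCtrl. Of the 49 other hypoxia genes 19 rose and 23 fell in shSETD2, 23 rose and 23 fell in shMETTL14, and 21 rose and 23 fell in shCtrl, where DDIT4 had -5.24 and CITED2 -4.73. Over all genes the shares at that time were 33.6% higher and 35.5% lower in shSETD2, 37.6% higher and 34.6% lower in shMETTL14 and 36.9% higher and 33.2% lower in shCtrl.

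VEGFA had a path of its own. In shSETD2 it stood at 117 and 117 CPM at 0 h, 90.5 and 92.4 CPM at 1 h, 65.8 and 66.2 CPM at 3 h and 88.4 and 79.8 CPM at 6 h. In shMETTL14 it stood at 96.4 and 94.8 CPM at 0 h, 79.8 and 73.0 CPM at 1 h, 67.4 and 70.2 CPM at 3 h and 91.6 and 86.0 CPM at 6 h. In shCtrl it stood at 144 and 135 CPM at 0 h, 106 and 104 CPM at 1 h, 87.2 and 89.3 CPM at 3 h and 126 and 114 CPM at 6 h. It fell in the first hour in every line (-0.35, -0.32 and -0.41) and was higher at 6 h than at 3 h in every line (0.35, 0.37 and 0.44, adjusted p at most 0.000119).

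**Figure D4:**
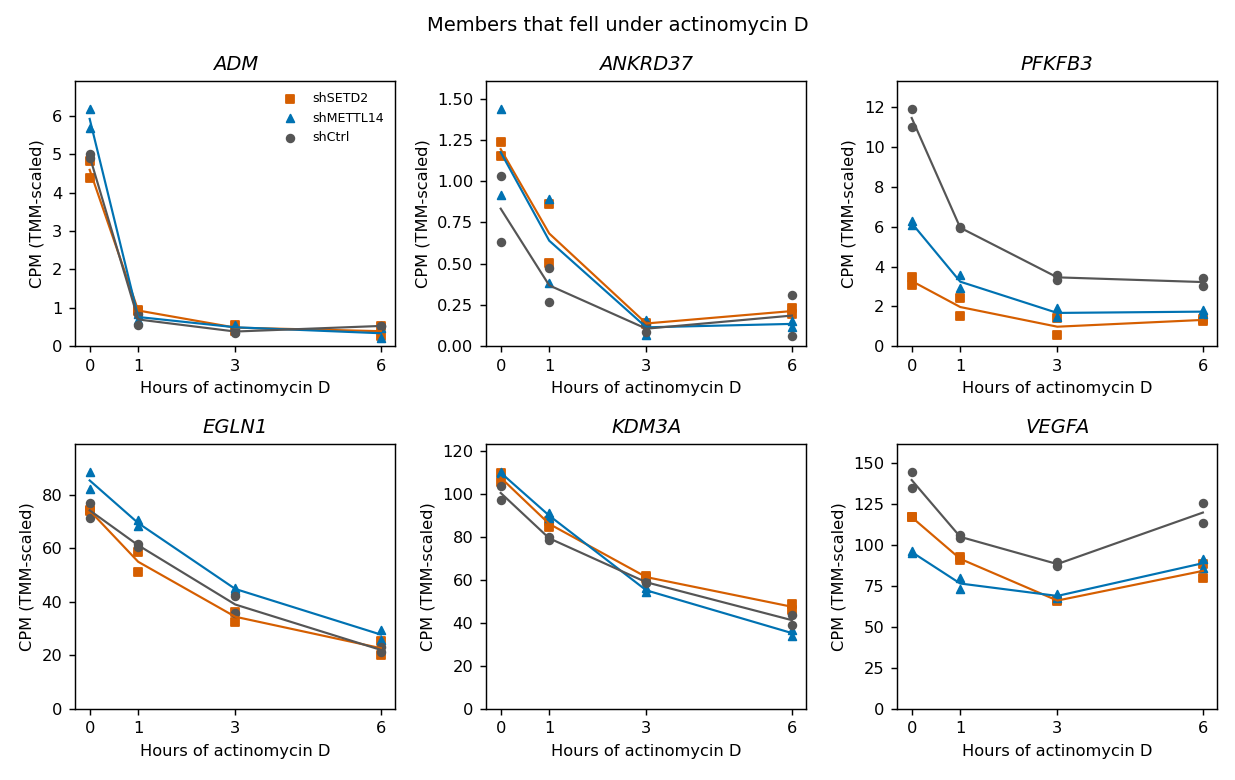
CPM (TMM-scaled, linear axes from 0) against hours of actinomycin D for ADM, ANKRD37, PFKFB3, EGLN1, KDM3A and VEGFA; each point is a library and lines join group means. ADM loses most of its level within 1 h in all 3 lines, and VEGFA is lowest at 3 h.

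The AU-rich nonamer ATTTATTTA, known from unstable messages, was looked for in 3' untranslated regions on the sense strand. The search took 1 GENCODE 29 transcript per gene (GRCh38), and other transcripts of a gene were not searched. The region used for VEGFA, for example, had 387 bases. The 4 genes that hold it in the transcript used are shown, since 3 of them fell in every line at 6 h, with the nonamer in capitals. The windows lie at chr1:231364065-231364093 (minus strand) for EGLN1, chr12:6923280-6923308 (plus strand) for ENO2, chr14:61747348-61747376 (plus strand) for HIF1A and chr10:6235284-6235312 (plus strand) for PFKFB3.
EGLN1: caggatggccATTTATTTAatatccattc
ENO2: gctttagtgtATTTATTTATTTATTTAtt
HIF1A: gcacctttttATTTATTTAtttttggcta
PFKFB3: cagatgtgctATTTATTTATTTAatatgt
These 4 are 10.3% of the 39 genes, against 6.75% of 12484 tested genes. ENO2, with 3 copies in its region, rose by 0.93, 1.03 and 0.87 in shSETD2, shMETTL14 and shCtrl, while ADM and ANKRD37, which fell most, had no copy in the transcript used. A match of letters is not a site.

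The authors' deposited table of half-lives lists 12 of the 39 genes, and LDHA is not among them; HK2 is the only enzyme gene listed. In the authors' deposited table HK2 has 4.19 h in shSETD2 and 5.79 h in shMETTL14, against 10.1 h in shCtrl. HIF1A has 3.92 h in shSETD2 and 4.61 h in shMETTL14, against 7.57 h in shCtrl, in the authors' deposited table. For VHL the authors' deposited table gives 8.65 h in shSETD2 and 9.23 h in shMETTL14, against 49.6 h in shCtrl, which is far beyond the 6 h observed. In the authors' deposited table ADM has 1.60 h in shSETD2 and 1.49 h in shMETTL14, against 2.02 h in shCtrl. In the authors' deposited table the value was below that of shCtrl for 10 of the 12 genes in shSETD2 and for 12 of 12 in shMETTL14. In the authors' deposited table that held for 88.2% of all 7772 genes in shSETD2 and for 88.8% in shMETTL14. The medians of the 12 genes in the authors' deposited table were 3.50 h in shSETD2, 2.92 h in shMETTL14 and 4.42 h in shCtrl, and those of all listed genes 4.13 h, 4.31 h and 6.02 h.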

How the data were processed

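RNA sequencing of 24 HepG2 libraries was analysed from the authors' deposited gene table, which per the file headers holds read counts and RPKM values for each library. The deposited RPKM values were found to equal the count divided by exon length and library total. Half-lives in hours come from another table the authors deposited; the design text says only that they compare treated with untreated samples. Cutadapt, TopHat, HTSeq 0.6.1p1 and GRCh37 are named in the submitters' processing notes, with no settings, annotation release or strand rule. The table held 0 ERCC rows and 0 value columns without a sample. Of 34618 genes 9318 had no count.

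Counts were fitted in R 4.3.3 with edgeR 4.0.16 (TMM factors, filterByExpr, robust quasi-likelihood fit, 12 group means, 12 residual degrees of freedom) over 14887 genes, at a threshold of 0.05 after Benjamini-Hochberg adjustment. CPM compares libraries within a gene, and RPKM compares genes only as far as the deposited exon lengths allow. The 39 genes and the lists were chosen with earlier results of these data known. LDHA was named in each comparison, with up to 8 of the largest rises and 8 of the largest falls past the threshold, the 5 highest and 5 lowest genes by RPKM in shCtrl at 0 h, and up to 5 genes per list. The alternatives were RLE factors, library size alone, no filter, a mean of at least 5 CPM, DESeq2 1.42.0, only the groups compared, the replicate block and leaving out each library; for LDHA minus the other enzymes they were pseudocounts of 0.05 and 5 CPM, the deposited RPKM and the 10 most abundant enzymes. Each fit with 1 library left out repeated the filter and the TMM factors, so its values also carry that change. The fit was tested on simulated data. Depth sets counting limits only. Sequences on GRCh38 were joined to the GRCh37 counts by gene name.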

Additional observations from a re-analysis of the deposited data

Results flagged for a closer look

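Several courses under actinomycin D differed between lines by a direct test of the difference (edgeR's quasi-likelihood test, adjusted p under 0.05). For LDHA the slope of shMETTL14 minus that of shCtrl was 0.18 log2 per h and the late change 0.82, and in shSETD2 minus shCtrl they were 0.11 log2 per h and 0.53. The late change of LDHA in shSETD2 minus that in shMETTL14 was -0.29, and -0.36 to -0.22 with 1 library left out. SLC2A1 had a late change of 0.40 in shSETD2 minus shCtrl, and 0.29 to 0.50 with 1 library left out. Both calls were lost in a fit of only the groups compared, as was the late LDHA call in shSETD2 minus shCtrl. The LDHA call between the knockdown lines was also lost with RLE factors.

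Slopes in shSETD2 minus shCtrl were -0.079 log2 per h for HK2, -0.070 for SLC2A3, -0.076 for NDRG1, -0.057 for HIF1A and -0.050 for VEGFA. Without shCtrl 0 h replicate 2 they were -0.047 for HK2, -0.036 for SLC2A3, -0.045 for NDRG1, -0.023 for HIF1A and -0.012 for VEGFA. Slopes in shMETTL14 minus shCtrl were -0.036 log2 per h for SLC2A3 and -0.068 for KDM3A, and -0.015 and -0.039 without shCtrl 0 h replicate 1. All of these comparisons with shCtrl share its libraries. The shSETD2 6 h pair, whose spread was 16.9 times the sampling variance, enters each value of shSETD2.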

How the results depend on the processing

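Of the values of single genes under other settings, 1321 kept direction and side of the threshold, 54 lost the call, 7 gained one and 1 changed sign. With 1 library left out, 843 kept both, 92 lost the call and 1 gained one. The change of sign was LDHA at 6 h against 3 h in shMETTL14, -0.061 with library size alone. LDHA there was 0.12 with RLE factors, 0.12 with a mean of at least 5 CPM, 0.12 with DESeq2 and 0.10 with the replicate block (adjusted p = 0.0417), and 0.033 to 0.16 with 1 library left out. In a fit of only the groups compared, LDHA in shSETD2 was -0.18 at 6 h against 3 h. LDHA minus the other enzymes was -1.06 to -0.91 in shCtrl with 1 library left out.

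The number of the 38 genes called at 6 h against 3 h was 4 in shSETD2 in the fit of only its groups, and 15 in shMETTL14 and 15 in shCtrl with library size alone. At 1 h against 0 h in shCtrl it was 13 to 16 with 1 library left out. For the slope of shSETD2 minus shCtrl it was 3 in the fit of only those groups and 3 to 11 with 1 library left out. For that of shMETTL14 minus shCtrl it was 5 with library size alone, 7 with a mean of at least 5 CPM, 13 in the fit of only those groups and 1 to 4 with 1 library left out. For the late change of shSETD2 minus shCtrl it was 0 in the fit of only those groups (2 at an unadjusted p under 0.05), 2 with DESeq2 and 1 to 5 with 1 library left out. For that of shSETD2 minus shMETTL14 it was 0 by edgeR with RLE factors (6 at an unadjusted p under 0.05), 0 in the fit of only those groups (1 unadjusted), 1 with DESeq2 and 0 to 6 with 1 library left out. The cause was not tested.

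Over 66 pairs of groups the deviations of replicate 1 correlated at -0.10 to 0.37 (median 0.056), with 23 over 0.1. The labels give no shared culture or day, so the main fit did not pair the libraries. Whether the replicate numbers pair them was not settled. With the replicate block 27 of the 38 genes were called at 0 h in shMETTL14 against shCtrl, and 23 without it. For ADM, ANKRD37 and CA9 the few reads at late times limit the precision.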
